A study of Drosophila melanogaster with 24 samples.

Results

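The larval imaginal disc of Drosophila melanogaster homozygous for the rn[tot] allele of rotund (rn) was compared with the wild-type disc. The comparison rests on 4 of the 24 polyA RNA libraries in the series, chosen by their labelled genotype and stage: 2 libraries of rn mutant discs (w[1118];;rn[tot]/rn[tot]) and 2 of wild-type discs (w[1118];;+/+), all from wandering larvae. The other libraries come from discs of rn[tot]/TM6 heterozygotes and from antennae at 8 h and 40 h of pupation and in the adult, with 2 libraries for each of the 3 genotypes at each stage. All groups carry w[1118], and the heterozygote also carries the TM6 balancer chromosome. The labels do not say whether the rn[tot] stock was crossed into the wild-type background or whether the libraries of a group came from separate animals. Differences in rn and in stock background therefore cannot be told apart, and p-values measure the spread between libraries, which may be technical.

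Imaginal discs are pouches of larval epithelium that grow, are patterned during larval life and turn into adult appendages at metamorphosis. Along the proximodistal axis, which runs from the body wall to the tip of the appendage, transcription factors such as hth, dac and Dll divide the disc into rings, and later-acting factors such as rn, bab1, bab2 and the Bar genes subdivide the distal rings. rn encodes a zinc-finger transcription factor that is expressed in a ring of cells in the leg and antennal discs, is needed for the intermediate tarsal segments of the leg, and is needed in the antennal disc for the diversity of olfactory neurons.

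The gene counts of the libraries were 12252090 and 10431139 in rn mutant discs, against 9058299 and 11717755 in wild-type discs. Levels are given in CPM, which puts the counts of all libraries on one scale, with the value of each library in order. The labels name an imaginal disc without saying which. Antennal genes were present in each of the 4 libraries: ct, Lim1, ss, dan and danr lay between 49.0 and 136 CPM, and Dll between 307 and 357 CPM. Some markers of other discs were low. The wing genes vg and nub stayed under 9 CPM and the eye genes eya and so under 21 CPM. The trunk homeotic genes Antp, Ubx, abd-A and Abd-B lay at 0.677 CPM or less. The full marker lists were not low. The wing markers, rn among them, summed to 385 and 378 CPM in rn mutant discs, against 374 and 386 CPM in wild-type discs. The eye markers summed to 247 and 234 CPM, against 284 and 226 CPM. The leg and homeotic markers summed to between 91 and 117 CPM. The share of other disc tissue was not tested. Markers of attached larval tissue differed between the libraries. The summed level of 11 fat body markers was 81.4 and 62.9 CPM in rn mutant discs, against 146 and 341 CPM in wild-type discs, and none of them had an adjusted p under 0.05 in the edgeR fit over all libraries of the series. A fit on the 4 libraries alone called 6 of 8 tested fat body markers and 6 of 18 muscle markers lower in rn mutant discs, among them the larval serum protein genes Lsp1alpha, Lsp1beta, Lsp1gamma and Lsp2, and no salivary gland marker. The 18 muscle markers summed to 1040 and 997 CPM in rn mutant discs, against 1082 and 1412 CPM in wild-type discs, and the 6 salivary gland markers to 87.4 and 43.7 CPM, against 52.3 and 310 CPM. The second wild-type library was therefore the highest of the 4 for all 3 tissues. The part of such tissue in the gene changes below was not tested.

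rn mRNA was not reduced in the mutant disc. Its level was 74.7 and 68.7 CPM in rn mutant discs, against 42.7 and 43.7 CPM in wild-type discs, and both mutant libraries lay above both wild-type libraries. The log2 change was 0.73 ± 0.26 (SE), with an adjusted p of 0.278 in the fit over all libraries of the series and of 0.000321 in a fit on the 4 libraries alone. rn lies on 3R at 7272617-7309629 on the minus strand (FBgn0267337, Ensembl annotation of BDGP6), and 4 of its transcripts are in the table, from 3 start sites. The transcripts that begin at 7309629 had 74.7 and 68.7 CPM or 74.1 and 68.9 CPM in rn mutant discs, against 42.7 and 43.7 CPM or 42.6 and 43.1 CPM in wild-type discs. The transcript that begins at 7302233 had 68.7 and 63.2 CPM in rn mutant discs, against 34.4 and 36.2 CPM in wild-type discs. The short transcript that begins at 7277479 had 52.4 and 46.7 CPM in rn mutant discs, against 27.3 and 29.7 CPM in wild-type discs. Every rn transcript was thus higher in each mutant library than in each wild-type library, but they overlap and share reads. The labels do not say which part of rn the allele alters, so an mRNA level does not check the genotype.

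Of 10993 genes tested, 169 had a Benjamini-Hochberg adjusted p under 0.05 between rn mutant and wild-type discs, which is 1.54% of all genes tested. Of these, 88 genes were higher in rn mutant discs (0.801% of genes tested) and 81 were lower (0.737%). Calls given below are those of this edgeR fit over all libraries of the series, unless another fit or tool is named. All 169 are protein-coding genes, and in all of them the mutant libraries lay apart from the wild-type libraries, as they did for 48.1% of all genes tested. The changes were large for the most part: the absolute log2 change exceeded 1 for 155 of the genes, 2 for 103 and 5 for 35. Most of the genes were expressed at a low level, with a median of 13.8 CPM in rn mutant discs for the higher genes and of 10.6 CPM in wild-type discs for the lower ones. The group with the lower level had no count at all for 13 of the higher genes and 12 of the lower ones. The number of genes depended on single libraries: it was 88 without the first and 88 without the second rn mutant library, 126 without the first wild-type library and 83 without the second. Of the 169 genes, 63 passed in each of these 4 fits. In a fit on the 4 libraries alone, 903 of 8735 genes tested passed, 453 of them higher and 450 lower. That fit takes the spread from these libraries and not from all 12 groups. Its counts of list members, above and below, stand against 903 of 8735 genes and not against 1.54%.

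**Figure D1:**
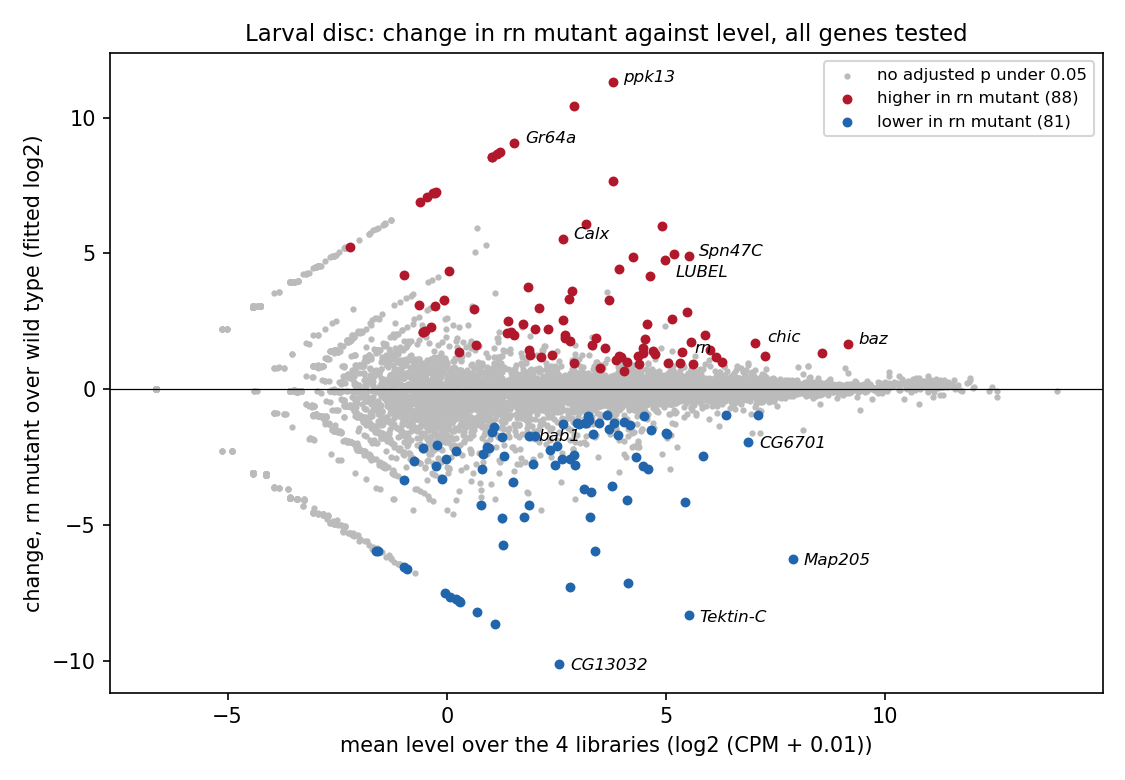
Each point is one of the 10993 genes tested, with its mean level over the 4 larval disc libraries (x axis, log2 of CPM + 0.01) and its fitted log2 change in rn mutant over wild type (y axis). The 88 red and 81 blue genes have an adjusted p under 0.05, and the straight edges of the cloud at the left are genes with no count in one group.

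Of the factors that pattern the proximodistal axis, bab1 and dysf fell in rn mutant discs and no member rose. These are 2 of 35 tested members, where 1.54% of all genes passed, and the median log2 change of the list was 0.00. bab1, which lies on 3L at 1036369-1101089 and encodes a BTB-domain transcription factor of the distal antenna and leg, had 6.08 and 5.75 CPM in rn mutant discs, against 14.1 and 11.8 CPM in wild-type discs. Its log2 change was -1.13 ± 0.22, adjusted p = 0.0103. dysf, on 3R at 26076592-26098711, encodes a bHLH-PAS factor that acts in leg joint formation. It had 4.60 and 5.25 CPM in rn mutant discs, against 14.8 and 15.9 CPM in wild-type discs. Its log2 change was -1.64 ± 0.36, adjusted p = 0.0298. For both genes the mutant libraries lay under every wild-type and heterozygote library: the heterozygote discs had 10.2 and 12.7 CPM of bab1 and 16.5 and 16.5 CPM of dysf. Both calls needed all or nearly all libraries. For bab1 the adjusted p was 0.0948 or 0.135 without the first or second rn mutant library and 0.1 without the first wild-type library, and for dysf it lay between 0.0904 and 0.294 without any 1 of the 4.

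The Bar genes, which encode homeodomain factors of the distal tarsus and antenna, had the largest positive changes of the list. B-H1 had 26.5 and 25.4 CPM in rn mutant discs, against 18.2 and 14.1 CPM in wild-type discs, a log2 change of 0.69 ± 0.19 with an adjusted p of 0.0906. B-H2 had 20.8 and 23.2 CPM in rn mutant discs, against 14.7 and 13.3 CPM in wild-type discs, a log2 change of 0.66 ± 0.23 with an adjusted p of 0.252. For each Bar gene both mutant libraries lay above both wild-type libraries, and in the fit on the 4 libraries alone the adjusted p was 0.0204 for B-H1 and 0.0226 for B-H2. That fit called 6 of 35 tested members of the list, beside 903 of 8735 genes tested over all. The higher ones were B-H1, B-H2 and Lim1 and the lower ones bab1, dysf and bowl. bab2, the paralog of bab1, had 180 and 189 CPM in rn mutant discs, against 220 and 196 CPM in wild-type discs, a log2 change of -0.17 ± 0.20. For 3 genes that set up the larger domains the adjusted p was 0.984 or more. Dll had 320 and 307 CPM in rn mutant discs, against 340 and 357 CPM in wild-type discs, and its log2 change was -0.15 ± 0.19. hth, the proximal factor, had 1012 and 988 CPM in rn mutant discs, against 1017 and 920 CPM in wild-type discs. dac, a factor of the intermediate rings, had 10 and 10.2 CPM in rn mutant discs, against 11.7 and 13.9 CPM in wild-type discs.

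**Figure D2:**
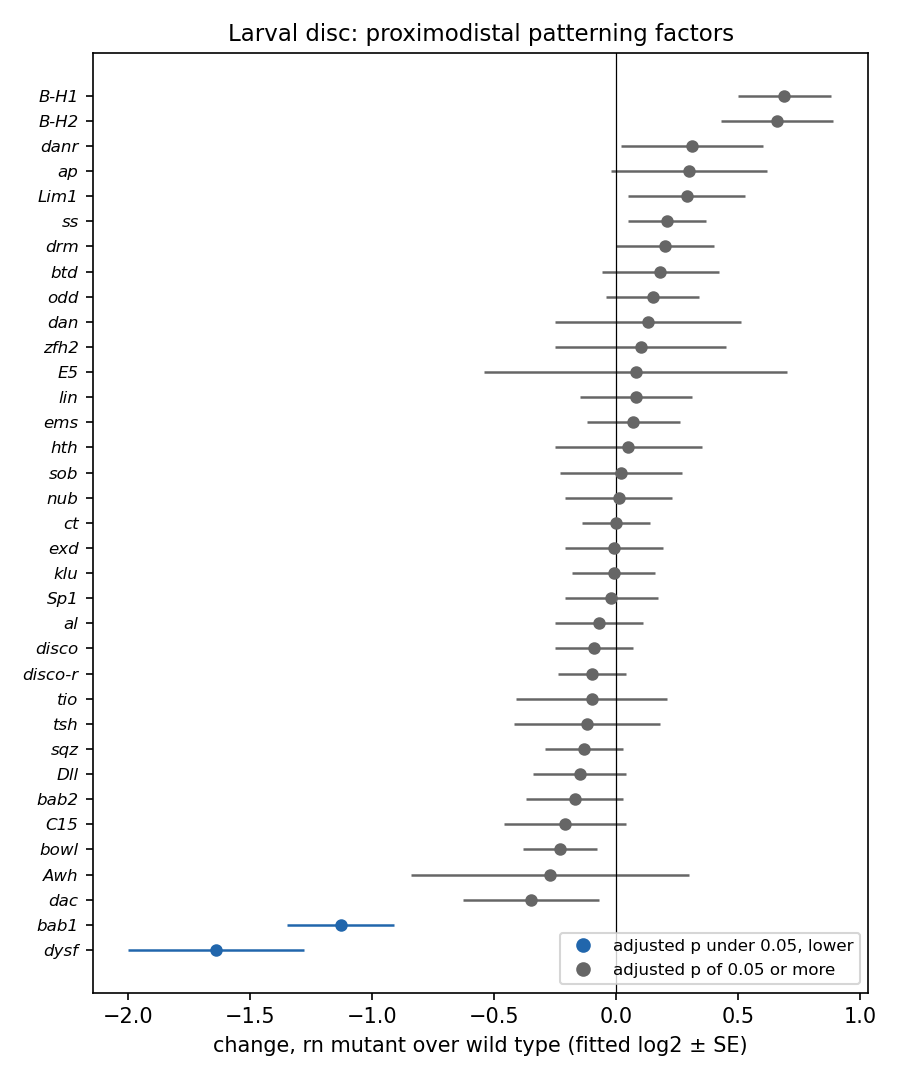
Fitted log2 change in rn mutant over wild type for the 35 tested patterning factors, with bars of 1 SE. bab1 and dysf, at the bottom, are the only members with an adjusted p under 0.05 in the fit over all libraries, and B-H1 and B-H2 have the largest positive changes.

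No member of the signalling and growth lists passed the test in the edgeR fit over all libraries. These were the EGFR pathway with 20 tested members, Notch with 20, Wnt with 22, BMP with 16, Hedgehog with 13, JAK/STAT with 9, cell death and damage response genes with 21, proneural and sensory precursor factors with 22, ecdysone response genes with 23 and cell cycle genes with 31. At an unadjusted p under 0.05 the counts were 1 for EGFR, 1 for JAK/STAT, 2 for proneural factors, 4 for ecdysone genes and 0 for the others, while 8.9% of all genes were below that value. DESeq2 called 1 gene in each of 2 of these lists. One was dpn, a neural precursor factor with 30 and 24.4 CPM in rn mutant discs, against 52.2 and 44.5 CPM in wild-type discs. The other was Eip63F-1, a calcium-binding protein induced by ecdysone, with 0.667 and 1.27 CPM in rn mutant discs, against 2.27 and 2.74 CPM in wild-type discs. The mutant libraries lay under the wild-type libraries for both genes, with adjusted p-values in the edgeR fit over all libraries of 0.148 and 0.0735. The fit on the 4 libraries alone called 1 Notch gene higher, E(spl)m4-BFM, and Dronc, a caspase gene, higher. It also called 1 Hedgehog gene higher and 1 lower, cos and boi, 1 ecdysone gene higher and 1 lower, ImpE1 and ftz-f1, and dpn lower, and it called no EGFR, Wnt or JAK/STAT gene.

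The median log2 change of these 10 lists lay between -0.14 for BMP and 0.11 for JAK/STAT, with a median of 0.00 over all genes tested. In the BMP list 3 of 16 members had a positive change. salr, one of the spalt transcription factors downstream of BMP signalling in the wing disc, had 102 and 96.5 CPM in rn mutant discs, against 132 and 133 CPM in wild-type discs, and the log2 change was -0.41 ± 0.19. salm, the other, had 53.5 and 44.3 CPM in rn mutant discs, against 58.9 and 64.8 CPM in wild-type discs. Both spalt genes were lower in each mutant library, with adjusted p-values of 0.562 and 0.753 over all libraries and of 0.00328 and 0.0489 in the fit on the 4 libraries alone. Among cell cycle genes 5 of 31 had a positive change, and the fit on the 4 libraries alone called 4 of them lower.

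The 89 tested genes of cytoplasmic ribosomal proteins had a median log2 change of 0.22, and 86 of them had a positive change. None passed the test in edgeR over all libraries or in DESeq2, where 1 and 1 were below an unadjusted p of 0.05. The fit on the 4 libraries alone called 40 of 88 tested higher and none lower. Under median-of-ratios scaling the median of the list was 0.20 with 84 positive. Their summed level was 171125 and 168513 CPM in rn mutant discs, against 141048 and 152404 CPM in wild-type discs. The 8 mitochondrially encoded genes had negative changes, with a median of -0.28. None was called in the fit over all libraries, with 0 below an unadjusted p of 0.05, or by DESeq2, and 2 of 8 were called lower in the fit on the 4 libraries alone, mt:ATPase8 and mt:ND2. Their share of all counts was 1.763% and 1.455% in rn mutant discs, against 1.993% and 1.799% in wild-type discs.

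Stress and defence lists were also without calls in the edgeR fit over all libraries. These were heat shock genes with 21 tested members, antimicrobial peptides with 15 and cuticle genes with 86, of which 4, 2 and 6 were below an unadjusted p of 0.05, and DESeq2 called none, none and 2 of them. The fit on the 4 libraries alone called 2 heat shock genes higher and 8 lower, 6 of these 10 being near-identical Hsp70 copies, and 2 cuticle genes higher and 6 lower of 44 tested. Among detoxification genes 4 members fell. GstE5 and GstZ1 were the only ones called of 35 tested glutathione S-transferases, and Cyp9c1 and Cyp304a1 of 74 tested cytochrome P450 genes, against 0.737% of all genes called lower. The fit on the 4 libraries alone called 5 of 28 tested glutathione S-transferases and 5 of 39 tested P450 genes, these 4 among them. Over all genes that fit called 903 of 8735 tested. GstE5 had 5.04 and 4.23 CPM in rn mutant discs, against 10.2 and 12 CPM in wild-type discs, and its log2 change was -1.26 ± 0.23, adjusted p = 0.00562. Its adjusted p was 0.114 without the second rn mutant library and 0.0859 without the second wild-type library. Cyp9c1 had 1.48 and 0.508 CPM in rn mutant discs, against 5.11 and 8.59 CPM in wild-type discs, with an adjusted p of 0.0115. Without the second rn mutant library the adjusted p of Cyp9c1 was 0.204, and without the second wild-type library 0.133. Cyp304a1 had no count in rn mutant discs, against 0.946 and 1.04 CPM in wild-type discs, at least 8.41-fold lower, and it did not pass without any 1 of the 4 libraries (adjusted p between 0.0811 and 0.226).

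The largest increases were of genes that had almost no mRNA in the wild-type disc. ppk13, a member of the pickpocket family of sodium channels, had 27.1 and 28.1 CPM in rn mutant discs, against 0 and 0 CPM in wild-type discs. Against the level that 3 counts over the wild-type group give, it was at least 221-fold higher, adjusted p = 1.01e-07. Spn47C, which encodes a serpin, a family of protease inhibitors, had 80.4 and 96.9 CPM in rn mutant discs, against 2.46 and 3.41 CPM in wild-type discs, a log2 change of 4.90 ± 0.41 with an adjusted p of 1.55e-06. LUBEL, which encodes an E3 ligase that makes linear ubiquitin chains, had 64.1 and 56.9 CPM in rn mutant discs, against 2.46 and 2.07 CPM in wild-type discs, a log2 change of 4.74 ± 0.44 with an adjusted p of 6.41e-06. For each of these 3 genes the heterozygote discs were near the mutant level: 28.3 and 18.7 CPM of ppk13, 92.3 and 75.2 CPM of Spn47C, and 46.0 and 41.2 CPM of LUBEL.

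Nlg2, which encodes a neuroligin, a synaptic adhesion protein, had 6.53 and 7.02 CPM in rn mutant discs, against 0.284 and 0.667 CPM in wild-type discs, a log2 change of 3.76 ± 0.35 with an adjusted p of 5.91e-06. CG34138, CG7900, CG14275, CG6912 and CG3984, genes known by their annotation number, rose by log2 changes between 4.18 and 6.10. The highest level among them was that of CG34138, with 59.8 and 58.0 CPM in rn mutant discs, against 0.568 and 1.19 CPM in wild-type discs. The size of the CG14275 change depended on the transcript used. Another of its transcripts had 21.6 and 19 CPM in rn mutant discs, against 3.03 and 3.48 CPM in wild-type discs. Of the 15 higher genes picked for the size of their change, all kept an adjusted p under 0.05 without any 1 of the 4 libraries. Of these, only CG5697, Calx and ATPsynepsilonL were also called higher than in heterozygote discs. Others lay above both heterozygote libraries without that call, such as CG11594 and CG34138. In heterozygote discs CG11594 had 4.57 and 6.24 CPM and CG34138 38.7 and 21.9 CPM. Calx, which encodes a sodium-calcium exchanger, had 13.6 and 10.8 CPM in rn mutant discs, 3.32 and 2.23 CPM in heterozygote discs and 0.379 and 0.148 CPM in wild-type discs. The change against the heterozygote had an adjusted p of 0.000332 for Calx, 0.0263 for CG5697 and 0.0422 for ATPsynepsilonL, in a comparison that called 0.164% of all genes. Calx was the only call among 11 tested calcium transport genes, and ATPsynepsilonL the only one among 14 tested ATP synthase genes, to which the fit on the 4 libraries alone added ATPsynC and ATPsynF as higher.

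The largest decreases took genes to or near 0 in the mutant disc. Tektin-C, on 3L at 5794405-5796543, encodes a filament protein of the axoneme. It had 0.371 and 0.169 CPM in rn mutant discs, against 89.7 and 94.8 CPM in wild-type discs, a log2 change of -8.33 ± 0.91 with an adjusted p of 4.04e-05. CG13032 had 0 and 0 CPM in rn mutant discs, against 12.3 and 11.4 CPM in wild-type discs, at least 99.6-fold lower with an adjusted p of 0.00174. CG12481 had 0.297 and 0.169 CPM in rn mutant discs, against 35.2 and 34.8 CPM in wild-type discs, a log2 change of -7.15 ± 0.70 with an adjusted p of 5.64e-05. None of these 3 genes exceeded 0.448 CPM in a heterozygote disc.

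Dscam4, which encodes a cell-surface protein of the Dscam family of neuronal recognition molecules, had 1.56 and 2.28 CPM in rn mutant discs, against 34.8 and 30.7 CPM in wild-type discs, a log2 change of -4.09 ± 0.39 with an adjusted p of 6.50e-06. Or47a, an odorant receptor gene of the adult antenna, had 0.222 and 0.508 CPM in rn mutant discs, against 7.38 and 6.59 CPM in wild-type discs, a log2 change of -4.25 ± 0.69 with an adjusted p of 0.00306. Without the first rn mutant library its adjusted p was 0.0906. Or47a shares its position with the cuticle gene Cpr47Ea on the opposite strand, and the strand setting of the counting is not given in the sources used here. DESeq2 called Cpr47Ea lower as well, so the counts of both genes may hold the same reads. The change lost its call without 1 or more libraries for 3 others of the 15 lower genes picked for size: eIF4E3, CG9270 and tut, whose adjusted p then reached up to 0.289, 0.222 and 0.321.

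Map205, GstZ1 and CHKov1 were low in rn mutant discs against both other genotypes, with adjusted p-values against the heterozygote of 2.33e-06, 0.000985 and 3.54e-05. Map205, which encodes a microtubule-associated protein, had 4.23 and 8.21 CPM in rn mutant discs, 430 and 236 CPM in heterozygote discs and 492 and 454 CPM in wild-type discs. GstZ1, a zeta-class glutathione S-transferase, had 0.445 and 0.169 CPM in rn mutant discs, 27.1 and 13.4 CPM in heterozygote discs and 23.7 and 17.2 CPM in wild-type discs. CHKov1 had 4.89 and 4.40 CPM in rn mutant discs, 69.0 and 37.8 CPM in heterozygote discs and 86.5 and 77.5 CPM in wild-type discs. The mutant libraries of these 3 genes lay under all 4 libraries of the other genotypes. Map205 was the only call among 20 tested genes of microtubule-associated proteins.

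**Figure D3:**
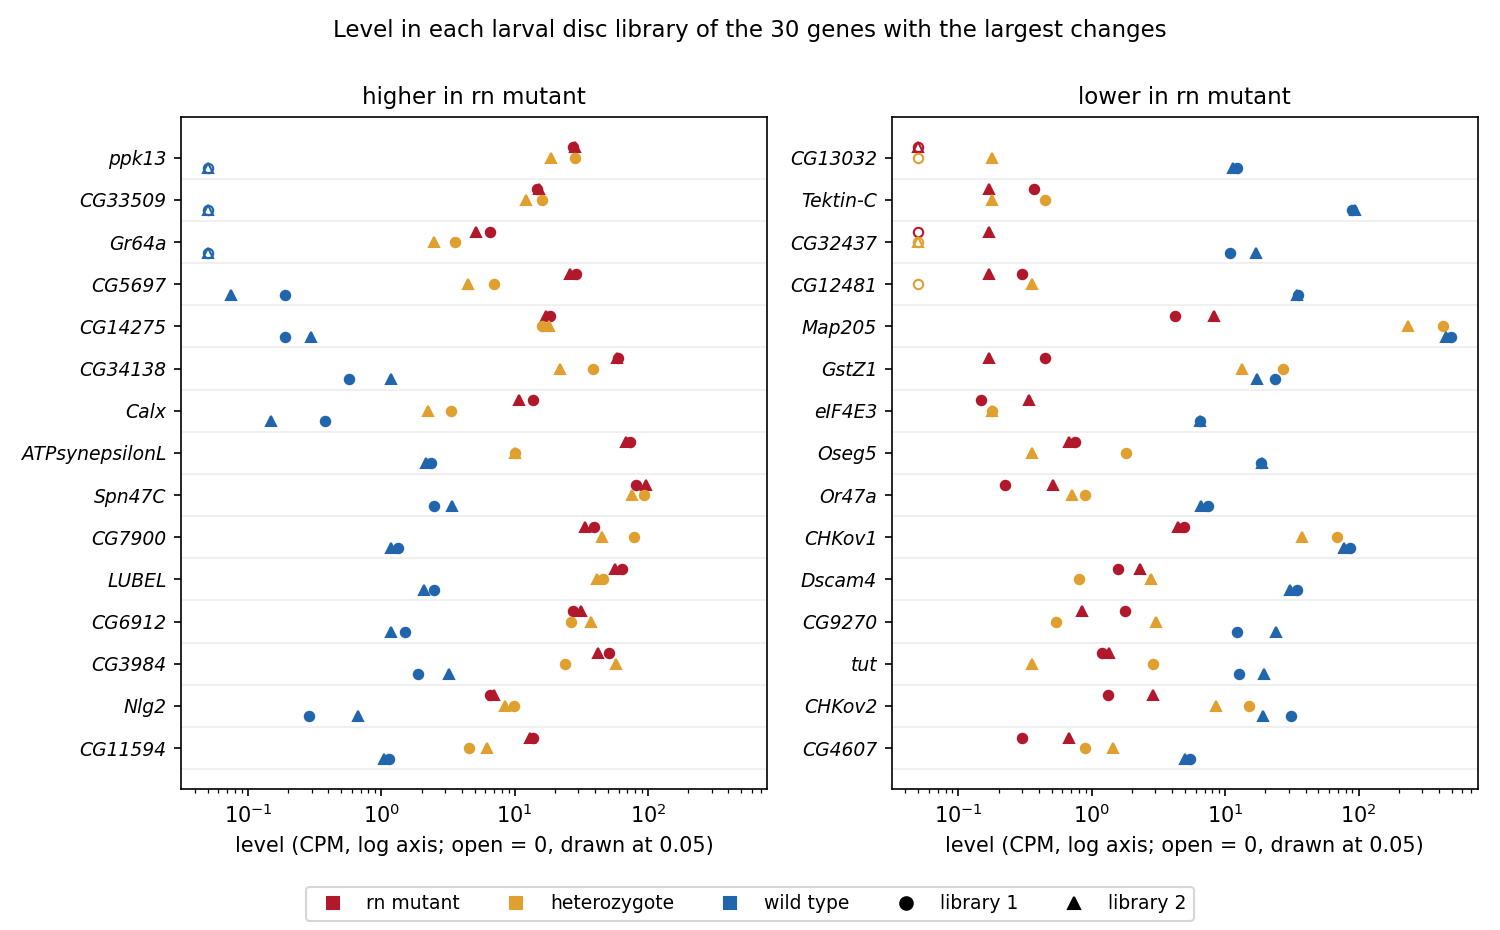
Level in CPM (log axis) in each larval disc library, with rn mutant in red, heterozygote in yellow and wild type in blue, and an open symbol for 0. The genes are the 15 higher (left) and 15 lower (right) with the largest changes among called genes of at least 5 CPM in the higher group. For most genes the heterozygote symbols lie nearer the red ones, while for Map205, GstZ1, CHKov1 and CHKov2 they lie nearer the blue ones. Those of ATPsynepsilonL lie between the 2 colours.

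Among genes with a high level, baz and chic rose. baz, on X at 17160006-17200728, encodes the polarity scaffold Bazooka (Par-3). It had 864 and 876 CPM in rn mutant discs, against 266 and 289 CPM in wild-type discs. Its log2 change was 1.65 ± 0.27 with an adjusted p of 0.00223, and it passed in each of the leave-one-out fits. chic, on 2L at 5972115-5981018, encodes the actin-binding protein profilin. It had 561 and 514 CPM in rn mutant discs, against 212 and 212 CPM in wild-type discs, for the transcript with the most counts. Its log2 change was 1.34 ± 0.22 with an adjusted p of 0.00296, and of 0.0564 without the second wild-type library. Other chic transcripts moved less: one had 159 and 160 CPM in rn mutant discs, against 157 and 148 CPM in wild-type discs. The increase of chic is thus that of some transcripts, not shown for the gene.

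Prip, an aquaporin gene, had 199 and 229 CPM in rn mutant discs, against 97.0 and 88.8 CPM in wild-type discs, a log2 change of 1.21 ± 0.24 with an adjusted p of 0.0149. SCAP, which encodes the escort protein of the sterol regulatory element-binding protein, had 105 and 102 CPM in rn mutant discs, against 50.7 and 52.9 CPM in wild-type discs, a log2 change of 0.99 ± 0.18 with an adjusted p of 0.00543. CG33217 had 207 and 194 CPM in rn mutant discs, against 63.0 and 60.2 CPM in wild-type discs. The adjusted p of these 3 genes rose to at most 0.180, 0.0679 and 0.163 without 1 library.

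Of the lower genes with a high level other than Map205, CG6701 had 56.9 and 40.0 CPM in rn mutant discs, against 181 and 194 CPM in wild-type discs, a log2 change of -1.95 ± 0.22 with an adjusted p of 5.18e-05. Adk3, which encodes an adenylate kinase, had 18.7 and 16.4 CPM in rn mutant discs, against 99.0 and 95.9 CPM in wild-type discs, a log2 change of -2.47 ± 0.31 with an adjusted p of 0.000174. AnxB9, an annexin gene, had 94.1 and 93.4 CPM in rn mutant discs, against 168 and 191 CPM in wild-type discs. Polr1E, a gene for an RNA polymerase I subunit, had 60.8 and 51.4 CPM in rn mutant discs, against 112 and 106 CPM in wild-type discs. CG6701 and Adk3 kept their calls without any 1 library, while the adjusted p of AnxB9 reached 0.0689 and that of Polr1E 0.285.

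Few markers of other cell types passed the test. NimC1, which encodes a phagocytosis receptor of blood cells, was the only call among 12 tested hemocyte markers, with 11.3 and 9.98 CPM in rn mutant discs, against 2.37 and 1.33 CPM in wild-type discs, and an adjusted p of 0.0164. It did not pass without any 1 of the 4 libraries (adjusted p between 0.0556 and 0.255). Hml, a defining marker of the same cells, had 25.4 and 16.1 CPM in rn mutant discs, against 16.8 and 27.9 CPM in wild-type discs, and the summed hemocyte level was 659 and 482 CPM, against 482 and 735 CPM. These overlap between the groups. Eaat1, a glutamate transporter gene of glia, was the only call among 8 tested glial markers, with 0 and 0.338 CPM in rn mutant discs, against 1.33 and 2 CPM in wild-type discs, and an adjusted p of 0.0175. Its adjusted p was 0.219 without the first rn mutant library and 0.188 without the second wild-type library. The defining glial gene repo had 2.22 and 2.79 CPM in rn mutant discs, against 3.98 and 3.78 CPM in wild-type discs. The 8 glial markers together summed to 139 and 138 CPM in rn mutant discs, against 138 and 136 CPM in wild-type discs. Of these markers 4 had a positive change, and the median log2 change was -0.07.

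In bulk RNA, fewer cells of a type and less mRNA per cell cannot be told apart. In the edgeR fit over all libraries no call was made among the markers of eye disc (14 tested), leg and homeotic genes (4), wing disc (10), neurons (9), trachea (5), brain and optic lobe (7), sex-biased genes (8) and testis (2). At an unadjusted p under 0.05 they held 3, 0, 1, 1, 0, 2, 1 and 0 members in that order, and the muscle, fat body and salivary gland markers 7, 6 and 1. DESeq2 called the eye markers gl and sev, the brain marker dpn and the fat body marker Lsp1gamma. The fit on the 4 libraries alone called gl and sev, the homeotic gene Scr, the wing markers sd and rn, the neuron marker Syx1A, the tracheal marker Gasp and the brain markers dpn and cas. gl, a transcription factor of photoreceptors, had 4.38 and 3.47 CPM in rn mutant discs, 6.63 and 3.57 CPM in heterozygote discs and 0.189 and 0.445 CPM in wild-type discs. sev, the receptor tyrosine kinase of photoreceptor fate, had 5.49 and 6.26 CPM in rn mutant discs, 4.66 and 9.99 CPM in heterozygote discs and 1.70 and 1.33 CPM in wild-type discs. Both were thus higher in the 4 libraries with rn[tot] than in the wild-type ones, while the summed eye markers, 247 and 234 CPM in rn mutant discs and 284 and 226 CPM in wild-type discs, overlapped.

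Some called genes share a known role that no list covered, and these groups were put together after their values were seen. Genes of cilia and the axoneme moved in both directions. Besides Tektin-C, Oseg5, which encodes an intraflagellar transport protein, fell to 0.742 and 0.677 CPM in rn mutant discs, against 18.4 and 18.8 CPM in wild-type discs. ODA-Dnal1, a dynein light chain gene, fell to 1.04 and 0.338 CPM in rn mutant discs, against 2.46 and 3.70 CPM in wild-type discs, with an adjusted p of 0.233 without the second rn mutant library and 0.2 without the second wild-type library. IFT54, another intraflagellar transport gene, rose to 17.1 and 16.1 CPM in rn mutant discs, against 4.92 and 4.00 CPM in wild-type discs. Called genes of synapses also moved in both directions. Snap25, which encodes a protein of synaptic vesicle fusion, had 7.49 and 7.70 CPM in rn mutant discs, against 0.757 and 1.11 CPM in wild-type discs. The neuroligin gene Nlg1 had 3.49 and 4.82 CPM in rn mutant discs, against 0.757 and 1.19 CPM in wild-type discs, and Nlg4 2.08 and 2.62 CPM, against 1.14 and 0.445 CPM. Without the second rn mutant library the adjusted p was 0.0568 for Nlg1 and 0.132 for Nlg4, without the first wild-type library it was 0.0667 for Nlg1, and without the second 0.439 for Nlg4. metro, which encodes a synaptic scaffold protein, fell to 1.93 and 1.61 CPM in rn mutant discs, against 7.67 and 9.19 CPM in wild-type discs, with an adjusted p of 3.15e-06, and kept its call without any 1 of the 4 libraries. The 9 neuron markers of the fixed list summed to 214 and 212 CPM in rn mutant discs, against 194 and 192 CPM in wild-type discs. None was called over all libraries, with 1 below an unadjusted p of 0.05, or by DESeq2, and Syx1A was called higher in the fit on the 4 libraries alone.

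Of the 169 genes, 25 lay in 9 runs of adjacent genes that moved in the same direction. The longest was a run of 7 higher genes on 3L at 4022700-4037575, made of CG11594 and the sugar taste receptor genes Gr64a to Gr64f. Gr64a had 6.53 and 5.08 CPM in rn mutant discs, against 0 and 0 CPM in wild-type discs, at least 46.9-fold higher. The other Gr64 genes also had no count in wild-type discs, and their lower limits ran from 13.3-fold for Gr64f to 36.4-fold for Gr64e. Gr64b and Gr64c overlap on the same strand, as do Gr64d and Gr64e, so their counts may hold the same reads. CG11594, at the edge of the run, had 13.6 and 13.1 CPM in rn mutant discs, against 1.14 and 1.04 CPM in wild-type discs.

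The run with the largest change was that of ppk13 with its neighbour CG33509 on 2L at 21084605-21088751. CG33509 had 14.7 and 15.1 CPM in rn mutant discs, against 0 and 0 CPM in wild-type discs, at least 119-fold higher. Other higher runs were subdued with CG34138 and CG6912 with CG3984 on 3R, sordd2 with CG15602 on X, and the aquaporin genes Drip and Prip on 2R. sordd2 had 58.1 and 62.1 CPM in rn mutant discs, against 9.75 and 10.3 CPM in wild-type discs, a log2 change of 2.58 ± 0.18 with an adjusted p of 2.19e-07. Drip had 11.8 and 18.4 CPM in rn mutant discs, against 4.73 and 4.89 CPM in wild-type discs. Drip and subdued did not pass without any 1 of the 4 libraries, with adjusted p-values of up to 0.425 and 0.246. CG15602 had an adjusted p of 0.0634 without the second rn mutant library and 0.155 without the second wild-type library.

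The lower runs were CG12971 with CG32437 and CG32440 on 3L, eIF4E3 with CG7213 and Dscam4 on 3L, and CHKov1 with CHKov2 on 3R. The genes of the run on 3L at 21355100-21361229 were at or near 0 in the mutant. CG32437 had 0 and 0.169 CPM in rn mutant discs, against 10.8 and 17.0 CPM in wild-type discs, while CG12971 and CG32440 had no count in rn mutant discs. Both of these lost their call without either rn mutant library, with adjusted p-values of up to 0.0875 for CG12971 and 0.172 for CG32440, which also lost it without the second wild-type library. CHKov2 had 1.33 and 2.88 CPM in rn mutant discs, against 30.9 and 19.3 CPM in wild-type discs, and its log2 change was -3.58 ± 0.53 with an adjusted p of 0.000868.

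Along the chromosomes, 3L had the highest share of called genes, 46 of 2168 tested or 2.12%. The share was 1.53% on 2L, 1.53% on 3R, 1.28% on 2R and 1.19% on X, against 1.54% of all genes. Within 1 Mb of rn on 3R, 4 of 172 genes tested were called (2.33%), and at 10 to 30 Mb 23 of 1403 (1.64%). The shares near rn and far from it differ by few genes, and no test of this difference was made.

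**Figure D4:**
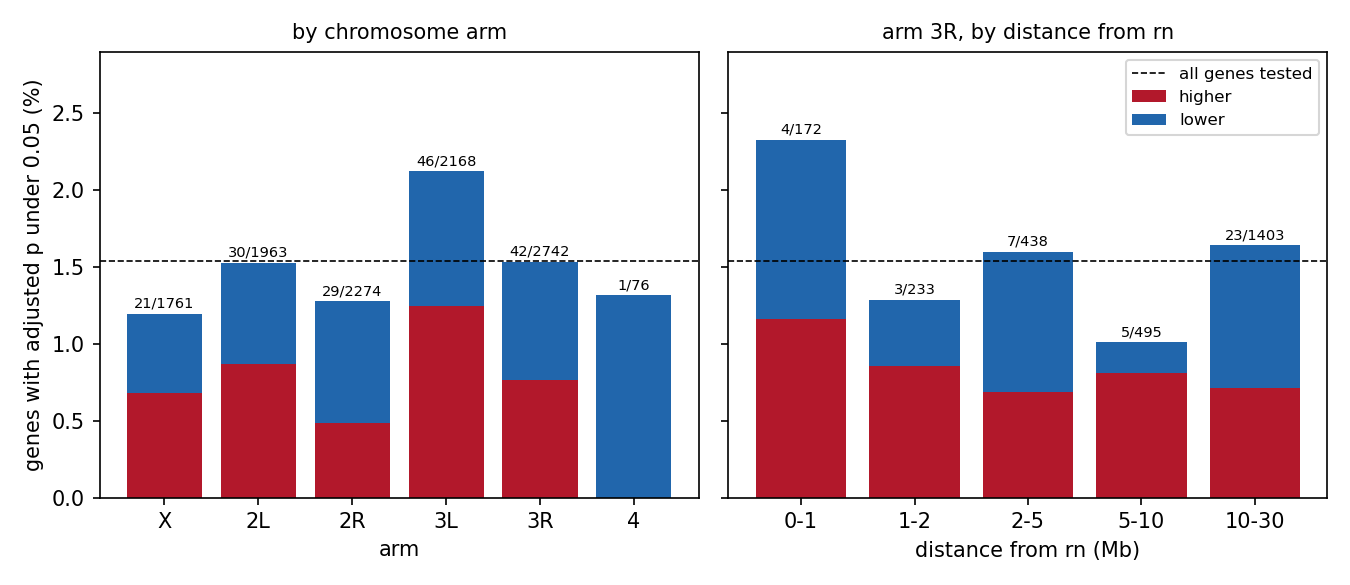
Percent of tested genes with an adjusted p under 0.05, by chromosome arm (left) and by distance from rn on arm 3R in Mb (right), split into genes higher (red) and lower (blue) in rn mutant discs, with called and tested genes above each bar. The dashed line is the share over all genes, 1.54%, and 3L stands above it with 2.12%.

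Each gene was represented by its transcript with the most counts. For 90 of the 169 genes several transcripts had at least 1 CPM, and in 88 of these all such transcripts moved in the same direction. The exceptions were Appl and ND-15. ND-15, which encodes a subunit of respiratory complex I, had 35.3 and 28.3 CPM in rn mutant discs, against 12.9 and 12.6 CPM in wild-type discs, for the transcript used. Another of its transcripts had 15 and 14.9 CPM in rn mutant discs, against 29.7 and 32.4 CPM in wild-type discs. Transcripts of 1 gene share reads, so these values are not independent. The 4 transcripts of baz moved as one, and those of Dscam4 all fell. Different genes may share reads as well, since 63 of the 169 overlap another annotated gene on the same or the opposite strand.

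The heterozygote disc gives a second set of values for the same genes. It shares the wild-type libraries in one comparison and the mutant libraries in the other, so only the values are set side by side. The 88 higher genes had a median log2 change of 2.14 in rn mutant over wild type and 0.23 in rn mutant over heterozygote, and 1.92 in heterozygote over wild type. The 81 lower genes had medians of -2.57, -0.43 and -1.79 in the same order. The heterozygote libraries differed more from each other than the other larval pairs, with a median absolute log2 difference of 0.494, against 0.125 for the rn mutant and 0.147 for the wild-type pair. An example is Culd, with 82.1 and 75.7 CPM in rn mutant discs, 23.5 and 80.2 CPM in heterozygote discs and 11.3 and 10.5 CPM in wild-type discs.

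At the antennal stages the same genes could be followed in other libraries of the same genotypes. Of the 169 genes, 81 were called the same way at 8 h, which is 47.9% of them and 22% of the 369 genes called at that stage (3.36% of all genes). At 40 h the number was 51, which is 30.2% of the 169 and 35.9% of the 142 called there (1.29% of all genes). In the adult antenna it was 50, which is 29.6% of the 169 and 14.7% of the 339 called there (3.08% of all genes). The stages share the stocks and the estimate of the spread, but no library. The 2 wild-type libraries at 8 h were the least alike pair of the series, with a median absolute log2 difference of 0.691, which limits the 8 h values. The median log2 change of the 88 higher genes was 2.14 in the disc, 1.35 at 8 h, 0.77 at 40 h and 0.77 in the adult, and that of the 81 lower genes -2.57, -1.14, -0.45 and -0.23. These genes were picked by their larval change, which by itself tends to make the larval medians the largest. The medians are therefore no measure of a fall with age.

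At all 4 stages 28 genes were called in the same direction, among them ppk13, CG33509, Spn47C, CG34138, Nlg2 and sordd2 as higher genes and Map205, GstZ1, CG32437 and Polr1E as lower ones. Spn47C, for example, had log2 changes of 4.90 in the disc, 5.77 at 8 h, 5.34 at 40 h and 4.42 in the adult. Another 66 genes were called in the disc and at no antennal stage, which is not a test of a difference between disc and antenna. In the later test of that difference, 17 of the 169 genes passed in the direction of their larval change and 1 in the other. Of all genes tested, 0.191% passed. The 169 were picked by their larval change, which is itself part of the difference tested, so these 2 counts follow in part from that choice. baz did not pass the test of the difference, with a log2 change of 1.65 in the disc, -0.14 at 8 h, 0.41 at 40 h and 1.01 in the adult. bab1 had log2 changes of -1.13 in the disc, -1.74 at 8 h with an adjusted p of 0.000253, -0.18 at 40 h and -0.02 in the adult. dysf had -1.64 in the disc, -0.59 at 8 h, 0.50 at 40 h and 0.43 in the adult. rn itself had log2 changes of 0.73 in the disc and -1.14 at 8 h, the second with an adjusted p of 0.0269.

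**Figure D5:**
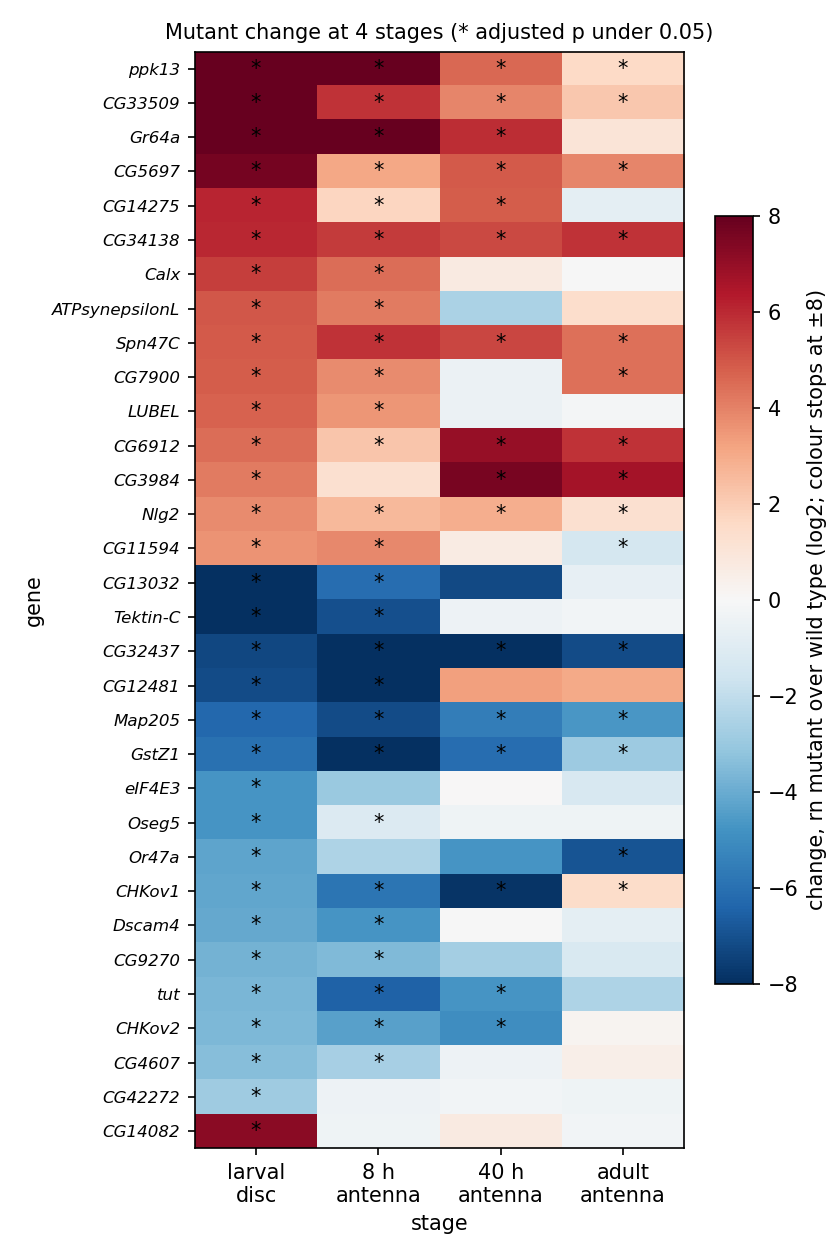
Fitted log2 change in rn mutant over wild type at the 4 stages (columns, in order of age), with red for higher, blue for lower and an asterisk for an adjusted p under 0.05. The rows are the 30 genes with the largest larval changes among called genes of at least 5 CPM in the higher group, and 2 further genes whose change differed between disc and antenna. Genes such as ppk13, CG34138, Spn47C and Map205 keep their colour in every column, while Tektin-C, CG42272 and CG14082 lose it after the disc or after 8 h.

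The larval change was tested against the mean change of the 3 antennal stages in the same fit. This difference had an adjusted p under 0.05 for 21 genes, 0.191% of those tested, 11 with a positive and 10 with a negative difference. The number was 12 and 10 without the first and second rn mutant larval library, 20 without the first wild-type larval library and 12 without the second. Oseg5 had the smallest p: its log2 change was -4.69 in the disc, -1.08 at 8 h, -0.36 at 40 h and -0.35 in the adult. In the antenna its level was 18.4 and 15.6 CPM in rn mutants, against 34.4 and 37.3 CPM in wild type at 8 h, and 40.9 and 45.3 CPM, against 55.4 and 54.3 CPM, in the adult. CG14082 was at 1.33 and 1.95 CPM in rn mutant discs, against 0 and 0 CPM in wild-type discs, and at 39.6 and 45.2 CPM in rn mutants, against 46.1 and 51.8 CPM in wild type, in the adult antenna. Calx had log2 changes of 5.54 in the disc, 4.47 at 8 h, 0.72 at 40 h and -0.03 in the adult. Its adult level was 78.0 and 87.4 CPM in rn mutants, against 82.5 and 86.5 CPM in wild type. The test could not judge ppk13 or the Gr64 genes, which had no wild-type count in the disc and at another stage. The difference for ppk13 was 5.86 with an SE of 7955.66, and the SEs of the Gr64 genes lay between 4210.91 and 13242.59.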

How the data were processed

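Per the labels' protocols, polyA RNA was made into stranded Illumina libraries. Per the submitters' processing notes, the authors used CASAVA 1.8, BWA 0.7.12 and DESeq2. The sources used here do not give the genome build, the counting program or its strand setting. The deposited unnormalized table holds counts for 29872 transcripts. A second deposited table holds a normalized signal, which equals those counts times 1 constant per library, so counts were used throughout. Of the transcripts, 29393 matched 13409 genes of the Ensembl BDGP6 annotation, with 98.69% of all counts, and the other 479 were left out. Each gene took the transcript with the most counts (45.5% of the counts). The design had assumed gene counts, so this step was set once the transcript table was known.

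Genes were tested with edgeR 4.0.16 (R 4.3.3): TMM scaling, filterByExpr with a minimum count of 10, quasi-likelihood F test, 12 group means over all 24 libraries with 12 residual degrees of freedom, Benjamini-Hochberg adjustment at 0.05, two-sided. The interaction was the larval change minus the mean change of the 3 antennal stages. Each SE is the absolute log2 change divided by the square root of its F statistic, not an SE estimated by the fit. Limits against a group without counts used 3 counts over the group and cover counting error only. No replicate pair agreed within sampling noise. Data were simulated for this comparison, with 10893 genes. Of genes changed by a log2 of 1, 43.8% were recovered, and of those changed by a log2 of 2, 91%, with 2 false calls. Changed genes were drawn only above a minimum mean count, and each gene had the same spread in all libraries. The real pairs differed in median absolute log2 difference, from 0.125 for rn mutant discs to 0.691 for wild-type 8 h antennae. The rates therefore hold for that setting and not for these libraries.

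Named genes were rn, 15 genes in each direction with the largest log2 change among called genes of at least 5 CPM in the higher group, the 5 called genes with the highest level in each direction, up to 4 called members of each list, called neighbours, and the 5 smallest interaction p-values. Other genes named were chosen after their values were seen. The comparison and the gene lists were chosen with earlier results of these data known. Alternatives were another scaling, DESeq2 1.42.0, other filters, fits on fewer libraries, sums over transcripts, a replicate block and each of the 4 libraries left out. Promoter motifs were not analysed here.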

Additional observations from a re-analysis of the deposited data

Results flagged for a closer look

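The larval mutant change differed from the mean change of the 3 antennal stages for 21 genes by the test of the difference itself (adjusted p under 0.05, edgeR), and the 5 with the smallest p are given here with the log2 difference, larva minus antenna. Oseg5, the intraflagellar transport gene, had -4.09 ± 0.39, adjusted p = 0.000105. CG42272 had -2.50 ± 0.24, adjusted p = 0.000105: its level was 5.86 and 5.08 CPM in rn mutant discs, against 37.2 and 40.2 CPM in wild-type discs, while at 40 h it was 122 and 141 CPM in rn mutant antennae, against 142 and 163 CPM in wild-type antennae. Calx, the sodium-calcium exchanger gene, had 3.83 ± 0.40, adjusted p = 0.00019. CG14082, whose 41 counts in rn mutant discs stood against 0 in wild-type discs, had a fitted difference of 7.2, which depends on the prior count, with an adjusted p of 0.000735. CG14275 had 4.16 ± 0.53, adjusted p = 0.00153, and its log2 change was 6.10 in the disc, 1.74 at 8 h, 4.85 at 40 h and -0.78 in the adult. Another of its transcripts had a log2 ratio of 2.60 in the disc, against 5.70 for the transcript used. The disc and the antenna differ in tissue as well as in stage, and these cannot be told apart.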

How the results depend on the processing

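The number of genes called between rn mutant and wild-type discs (169, with 88 higher and 81 lower) was 297 with DESeq2 (176 lower), 47 of 8898 tested in a fit on the 6 larval libraries (28 higher and 19 lower) and 903 of 8735 tested on the 4 libraries alone (453 and 450). With each of the 4 libraries left out it ran from 83 to 126, with 39 to 55 higher and 37 to 71 lower genes. Among alternatives chosen after seeing the data, it was 186 without the first heterozygote larval library, 273 (131 higher and 142 lower) without the first wild-type 8 h library, and 392 (193 higher and 199 lower) without both, the least alike replicate pairs; 166 of the 169 genes were called there. The interaction count of 21 was 113 with DESeq2, 34 with sums over transcripts, 10 to 20 with 1 of the 4 libraries left out, and 26, 45 and 82 in the added fits, and it could not be fitted on larval libraries alone. The replicate numbers are shared between groups without the labels saying that they pair libraries, and deviations of same-numbered rn mutant and wild-type libraries correlated at -0.0542; with replicate as a block 143 genes were called (70 higher and 73 lower), 129 of them among the 169, and 13 in the interaction. The causes were not tested. Of 912 values of the 61 named genes under alternatives, 806 kept direction and side of the threshold, 104 lost the call, 2, both of rn, gained it and none reversed. A low level limits most genes that had no count in one group. The promoter search was not run.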

Other observations

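A few genes called in the disc moved the other way later. Nlg1 had a log2 change of 2.06 in the disc and -1.09 at 8 h, the second with an adjusted p of 0.0383, and its larval call was lost without the second rn mutant or the first wild-type library (adjusted p 0.0568 and 0.0667). CHKov1 had -4.14 in the disc, -7.82 at 40 h and 1.47 in the adult antenna, the last with an adjusted p of 0.00772. CG11594, at the edge of the Gr64 genes, had 3.61 in the disc, 3.86 at 8 h and -1.43 in the adult, the last with an adjusted p of 0.00477.

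mthl6, a gene of the methuselah-like receptor family, was higher at all 4 stages but least so in the disc. It had 7.12 and 6.26 CPM in rn mutant discs, against 0.757 and 2.07 CPM in wild-type discs, with a log2 change of 2.20 and an adjusted p of 0.0221. That p was 0.143 without the first and 0.0847 without the second rn mutant library, and 0.179 without the first wild-type library. At 8 h it had 3.56 and 5.13 CPM in rn mutant antennae, against 0 and 0 CPM in wild-type antennae. SK, a potassium channel gene, fell to 1.26 and 1.52 CPM in rn mutant discs, against 10.8 and 8.59 CPM in wild-type discs, and kept its call without any 1 library. These genes were chosen after their values were seen.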
